A study of Mus musculus with 8 samples.

Results

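The plasminogen activator family as described here consists of 9 genes: the activators Plau and Plat, the receptor Plaur, the inhibitors Serpine2 and Serpinb2, the zymogen Plg, and the tissue factor genes F3, Tfpi and Tfpi2. Members were chosen by name, as every probe outside the control spots whose gene symbol on the array or in its platform annotation was 1 of these 9, which gave 20 of the 41174 probes. CT26-FL3 is a mouse colon carcinoma line obtained from CT26 by 3 rounds of selection for growth in the liver. Excised liver tumours were taken apart by enzymes, and a short period in culture was used to clear stroma before the arrays. CT26 is the unselected parent, labelled as poorly metastatic to the liver. Both lines are labelled as male Balb/c, were grown in the same medium with serum and antibiotics, and gave total RNA. From each line 4 samples were hybridised to 1-colour Agilent arrays. Nothing in the labels tells if the 4 were cultured apart, and the p-values below therefore speak of sample-to-sample spread that could be technical.

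Urokinase (Plau) and tissue-type plasminogen activator (Plat) are secreted serine proteases that cut plasminogen into plasmin, a broad protease of fibrin and matrix. Urokinase does this at the cell surface when bound to its receptor (Plaur), and serpins stop both activators. Tissue factor (F3) is the surface receptor that starts coagulation, and the Kunitz-type inhibitors Tfpi and Tfpi2 hold back its products or related proteases. Tumour cells of the colon and other tissues are known to carry urokinase, its receptor and tissue factor.

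The lines differed in Plau, which was at 0.510 times the CT26 level in CT26-FL3, and by less in F3, which was at 0.724 times the CT26 level. Plaur and Plat were measured well and did not pass the test, and the probes of Tfpi did not give a common answer. Plg, Serpine2, Serpinb2 and Tfpi2 were not well above background in either line. Of the 20 probes, 12 of 5 genes could be tested. Among these 2 were higher in CT26-FL3, 1 of which entered only through that line, 4 were lower and 6 did not pass, while 22.9% of all 23068 probes tested were higher and 25.4% were lower. The share of family probes that differed was therefore near the background of 48.3% and is not a result about the family. In 6 of the 12 the lines did not overlap, against 46.0% of all probes tested.

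Intensities below are scaled to a common 75th percentile of the arrays, in array units, and the detection limit lay between 14.02 and 25.5 of these units. Differences are given on the log2 scale as CT26-FL3 minus CT26, with the standard error (SE) and the limma p-value adjusted over all probes tested. Levels of different probes cannot be set against each other, since probes differ in how strongly they bind. These are bulk RNA samples, in which fewer cells of a type and less RNA per cell cannot be told apart.

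Plau had 2 probes, both to the same reference transcript. The brighter gave 416, 385, 391 and 433 units on the CT26-FL3 arrays, against 817, 857, 725 and 787 units on the CT26 arrays. Every CT26-FL3 array lay below every CT26 array, with a gap far wider than the spread within a line. The means were 406 ± 22.1 units in CT26-FL3 and 797 ± 55.5 units in CT26 (SD, n = 4 each). The difference was -0.97 (SE 0.07, limma adjusted p = 6.12e-06). The dimmer probe gave 21.4, 19.4, 15.5 and 20.2 units in CT26-FL3, against 39.3, 53.1, 46.0 and 46.9 units in CT26. The lines again did not overlap, but 1 CT26-FL3 array was below its detection limit. The dimmer probe fell by 1.28 (SE 0.12, limma adjusted p = 4.27e-05), or by 0.43 when a constant of 50, which draws dim values together, was added before log2. Of all probes tested, 4.80% passed with a change of at least 2-fold (2.61% higher and 2.20% lower). The dimmer Plau probe was 1 of those lower, and the brighter was just short of it. The brighter probe differed by -1.06 within replicates 1 and 2 and by -0.88 within replicates 3 and 4, the sets of arrays that share a number in their file names.

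**Figure D1:**
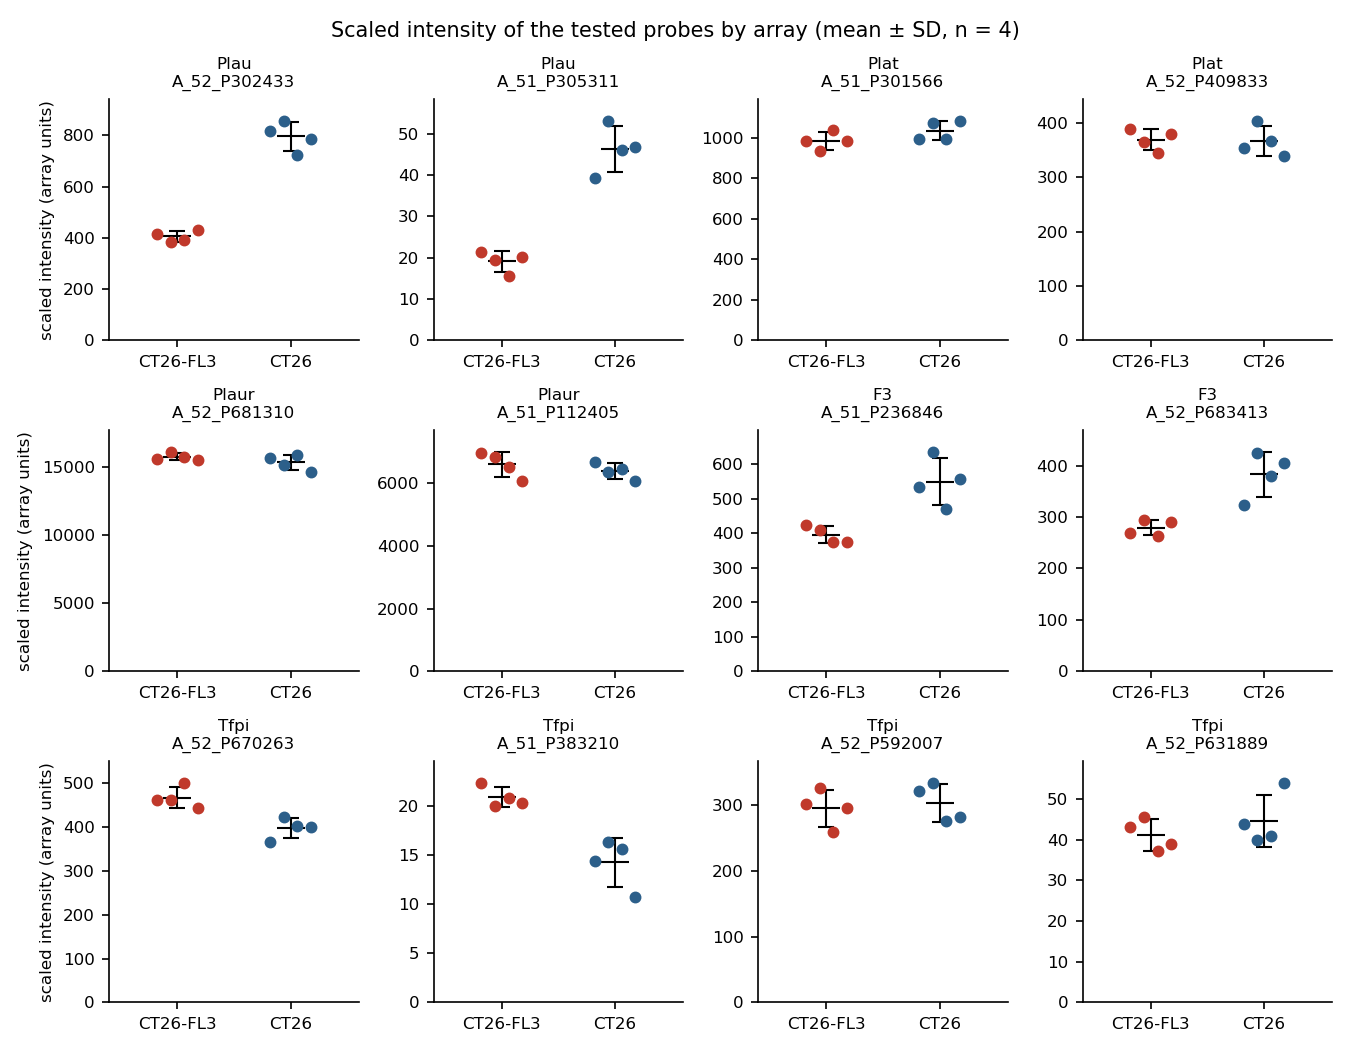
Scaled intensity in array units, on linear axes from 0, of the 12 tested probes of Plau, Plat, Plaur, F3 and Tfpi. Points are the 4 arrays of CT26-FL3 (left, red) and the 4 of CT26 (right, blue), and bars are the mean ± SD. Both Plau probes and both F3 probes are lower in CT26-FL3 without overlap, the Plaur and Plat probes overlap, and 2 of the 4 Tfpi probes are higher in CT26-FL3.

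Plat, the activator known best from fibrin clots, had 2 tested probes. The brighter lay between 932 and 1039 units in CT26-FL3, against 994 to 1083 units in CT26, and the lines overlapped. Its difference was -0.07 with a 95% confidence interval of -0.20 to 0.05 (limma adjusted p = 0.31). The other tested probe differed by 0.01 with an interval of -0.14 to 0.17 (adjusted p = 0.892). A probe to a separate clone of the gene stayed between 2.59 and 8.08 units on all arrays and was not well above background.

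Plaur, the membrane anchor of urokinase, lay on the brighter of its probes between 15496 and 16079 units in CT26-FL3, against 14640 to 15839 units in CT26. The ranges overlapped in part, with the lowest and next lowest arrays being of CT26. The difference was 0.04 with a 95% confidence interval of -0.06 to 0.14 (limma adjusted p = 0.507). On the dimmer probe it was 0.05 with an interval of -0.09 to 0.18 (adjusted p = 0.551). Neither interval reaches a change of the size seen in Plau.

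The protease and its receptor thus differed in how much they changed. Within an array, the log2 level of Plau minus that of Plaur averaged -5.28 in CT26-FL3 and -4.27 in CT26 (SD 0.10 and 0.13), so the gap between the lines was -1.01. An exact permutation test of the line labels (two-sided, 70 arrangements) gave p = 0.0286, the smallest it can give with 4 arrays a line, and 0.0286 after adjustment over the 3 gene pairs that could be tested of 7 planned. For Plau against Plat the gap was -0.90 with the same exact p-values. Since Plaur and Plat hardly differed between the lines, both tests largely repeat the difference in Plau. The lines did not overlap in 46.0% of all single probes tested, where the same permutation test would give this p-value. Its share among pairs of genes was not computed. The 4 pairs that could not be formed needed Serpine2 or Tfpi2, neither of which was above background.

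F3 had 2 probes. The brighter gave 424, 411, 376 and 374 units in CT26-FL3, against 533, 636, 470 and 557 units in CT26. All CT26-FL3 arrays lay below all CT26 arrays, and CT26 spread more widely. The means were 396 ± 25.2 units in CT26-FL3 and 549 ± 68.5 units in CT26 (SD, n = 4 each), a difference of -0.47 (SE 0.09, limma adjusted p = 0.0032). The dimmer probe averaged 279 ± 14.99 units in CT26-FL3 and 383 ± 43.9 units in CT26, a difference of -0.45 (SE 0.09, adjusted p = 0.00289). Within replicates 1 and 2 the dimmer probe did not pass (-0.39, adjusted p = 0.12).

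Tfpi had 4 tested probes, of which 2 were higher in CT26-FL3 and 2 did not pass. The brightest, matched to a cDNA clone, gave 461, 461, 501 and 444 units in CT26-FL3, against 366, 423, 401 and 400 units in CT26. The lines lay close together without overlap, and the difference was 0.23 (SE 0.06, limma adjusted p = 0.0128). It did not pass within either set of arrays (0.23 and 0.24, adjusted p = 0.166 and 0.13). The probe annotated to an mRNA of TFPIbeta, the form held at the membrane by a lipid anchor, gave 22.3, 20.01, 20.8 and 20.3 units in CT26-FL3, against 14.4, 16.4, 15.6 and 10.7 units in CT26. It was above the limit on all 4 CT26-FL3 arrays and on 1 CT26 array, so it entered the test through the line in which it is higher, and its call supports nothing by itself. Its difference was 0.57 (SE 0.12), or 0.20 with the constant of 50. The remaining tested probes, both to 1 reference transcript, overlapped between the lines. They differed by -0.04 and -0.11 (adjusted p = 0.769 and 0.426, 95% confidence intervals of -0.24 to 0.17 and -0.35 to 0.13). Whether the probes read different forms of the transcript was not tested.

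F3 and Tfpi, the initiator and its inhibitor, were set against each other on their brightest probes. Within an array, the log2 level of F3 minus that of Tfpi averaged -0.24 in CT26-FL3 and 0.46 in CT26 (SD 0.13 and 0.16). The gap between the lines was -0.70 (exact permutation p = 0.0286, also 0.0286 adjusted over the 3 pairs). Its size rests on the Tfpi probe that was higher in CT26-FL3. With the mean of the 2 probes to the reference transcript in its place, a choice made after seeing the data, the gap was -0.39 with the same exact p-values.

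**Figure D2:**
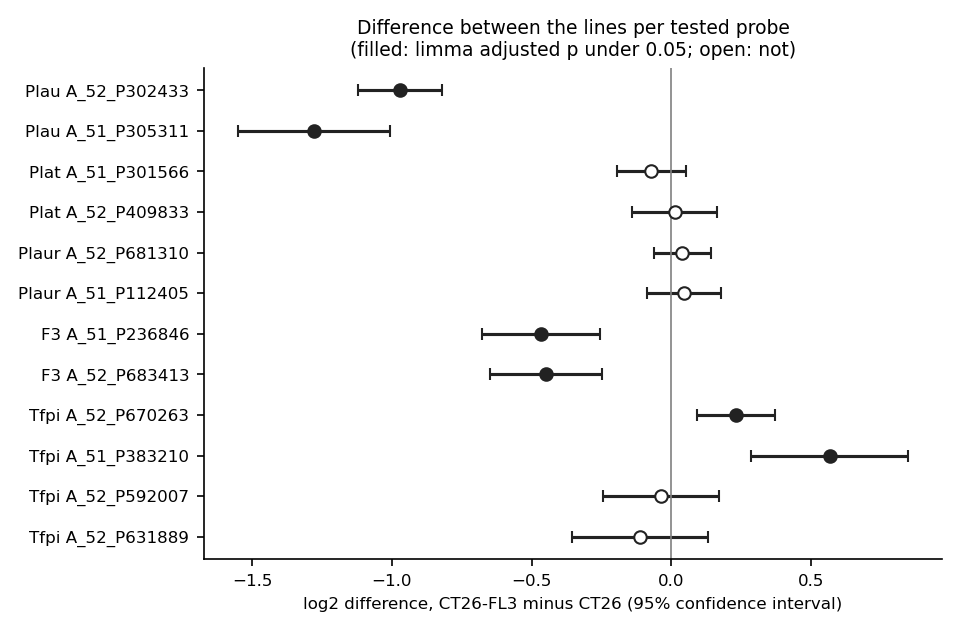
Log2 difference of CT26-FL3 minus CT26 for each of the 12 tested probes, with its 95% confidence interval from limma. Filled points passed an adjusted p of 0.05 and open points did not. Plau lies at -0.97 and -1.28 and F3 at -0.47 and -0.45, while the intervals of Plat and Plaur span 0.

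The stretch just before the start of a gene is where many transcription factors bind, and windows of 300 bases were at hand in RefSeq (GRCm38.p6) for 6 of the 9 members. Plau, Plat and Plg had no window there, so of the genes lower in CT26-FL3 only F3 could be shown. Each window holds 250 bases before the annotated start and 50 after it, and positions are counted from the start. The windows of F3, which was lower in CT26-FL3, of Plaur, which did not pass, and of the upstream start of Tfpi, which was higher on its brightest probe, are shown to compare a member of each kind. Capitals mark matches to TGANTCA, a looser form of the recognition site of the AP-1 factors in which the middle base is free, searched on both strands.
F3, chr3:121723287-121723586, plus strand: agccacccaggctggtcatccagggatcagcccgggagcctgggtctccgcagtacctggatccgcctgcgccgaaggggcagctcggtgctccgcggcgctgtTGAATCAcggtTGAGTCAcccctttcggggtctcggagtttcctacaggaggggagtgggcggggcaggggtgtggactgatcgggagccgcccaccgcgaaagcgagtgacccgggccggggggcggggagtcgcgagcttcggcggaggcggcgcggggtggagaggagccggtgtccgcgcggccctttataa
Plaur, chr7:24462233-24462532, plus strand: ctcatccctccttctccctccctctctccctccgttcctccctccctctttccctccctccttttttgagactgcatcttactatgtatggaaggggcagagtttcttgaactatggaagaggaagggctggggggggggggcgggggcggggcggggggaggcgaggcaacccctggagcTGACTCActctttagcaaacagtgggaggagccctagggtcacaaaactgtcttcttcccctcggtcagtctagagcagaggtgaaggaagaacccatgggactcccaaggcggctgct
Tfpi, chr2:84476710-84477009, minus strand: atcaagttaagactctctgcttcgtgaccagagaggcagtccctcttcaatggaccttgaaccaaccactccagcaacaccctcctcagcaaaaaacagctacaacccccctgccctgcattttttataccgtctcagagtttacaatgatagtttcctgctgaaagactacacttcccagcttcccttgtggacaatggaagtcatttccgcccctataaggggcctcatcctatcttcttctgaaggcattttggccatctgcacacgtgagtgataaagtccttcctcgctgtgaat

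The F3 window held 2 matches, whose first bases lay at -146 and -135 from the start. The Plaur window held 1, at -69. In the Tfpi window these letters did not occur. Of 32851 windows of this length in the whole table, 7.81% held at least 1 match and 0.46% held at least 2. GGGCGG, the recognition site of Sp1, occurred 3 times in F3, of which the match at -58 is on the opposite strand. It occurred 3 times in Plaur, where 2 matches share a base, and once on the opposite strand in Tfpi. Of all windows, 35.7% held at least 1 such match and 10.7% held at least 3. No match to GGGCGG overlapped a match to TGANTCA. The letters TGANTCA stood in windows of 4 of the 6 members, which include Serpinb2 and Tfpi2, both below the detection limit in these cells. In Serpinb2, in Tfpi2 and at -146 in F3 the match read TGAATCA, with A as the free base. Members with the letters were thus lower in CT26-FL3 (F3), did not pass (Plaur) or could not be tested, and a match does not show that a factor binds.

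Plg, the zymogen that both activators cut, is made mainly by hepatocytes. Its probes stayed between 2.27 and 7.55 units on all 8 arrays, and its level in these cells is only known to be below the limit. The serpins of the family were also not well above background. Serpine2, a surface-bound inhibitor of thrombin and urokinase, lay between 2.81 and 11.98 units, and the 2 probes of Serpinb2, an inhibitor of urokinase, between 2.30 and 9.01 units. Tfpi2, a matrix-bound inhibitor of plasmin, lay between 2.36 and 7.88 units. No fold change is given for these genes. Replicate 4 of CT26 had the highest or next highest value on each of the 8 probes below the limit, and it also had the highest median of the negative control spots (7.43 raw units, against 2.23 to 5.27 on the other 7 arrays).

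**Figure D3:**
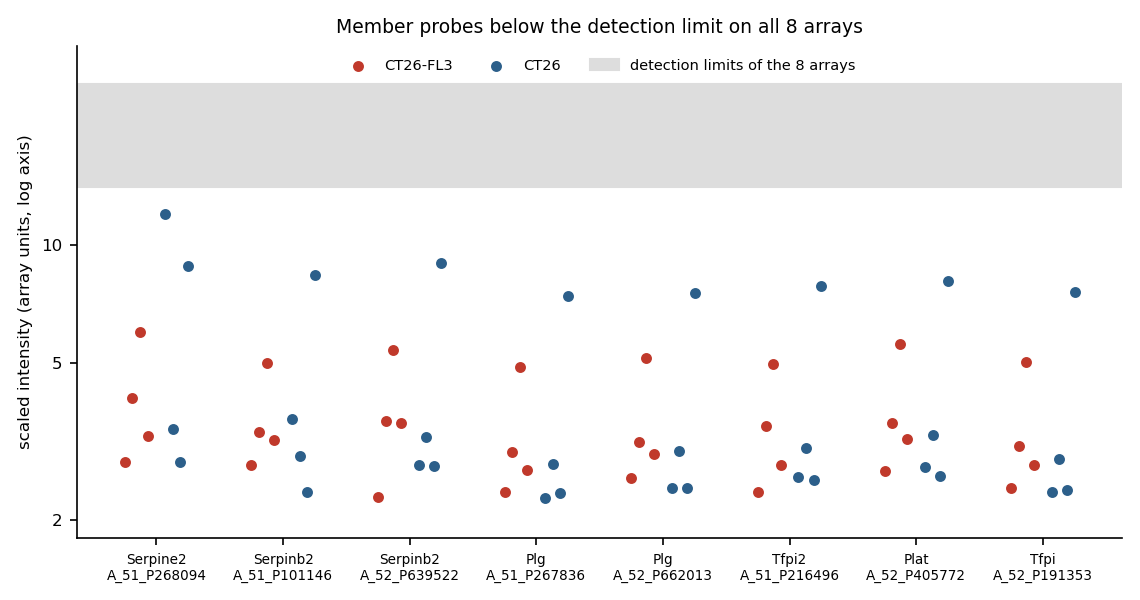
Scaled intensity in array units (log axis) of the 8 probes of Serpine2, Serpinb2, Plg, Tfpi2, Plat and Tfpi that were below the detection limit on all 8 arrays, with CT26-FL3 in red to the left of CT26 in blue. The grey band spans the limits of the arrays (14.02 to 25.5 units), and all points lie under it.

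The cells that a liver lesion could have brought along were checked through marker genes. Of 10 macrophage and Kupffer cell markers, 6 were above the limit on at least 1 array, and Ptprc, Adgre1, Clec4f and Itgam were on none. Of the 6, all tested, 2 were higher in CT26-FL3 (Mpeg1 by 0.89 and Cd68 by 0.38), 2 were lower (Cd14, which differed by -1.45, and Lyz2, at least 2.09-fold lower) and 2 did not pass (median 0.22). Lyz2 entered the test only through CT26, with 0 CT26-FL3 and 4 CT26 arrays above the limit. The sum over the list was 3625 to 4001 units in CT26-FL3, against 8539 to 9058 units in CT26, but most of it is Cd14. Of 10 fibroblast and stellate cell markers, 7 were tested, of which 1 was higher (Dcn, by 3.32), 5 were lower and 1 did not pass (median -0.47). Col1a1 differed by -0.76, Col3a1 by -0.56 and Acta2 by -0.49, while Lrat, Des and Reln were below the limit on every array. Their sum was 224554 to 243082 units in CT26-FL3 and 220829 to 258216 units in CT26, but most of it is Col1a2, the marker that did not pass. Of 4 neutrophil markers on the array 2 were tested, of which Mpo was higher by 0.89 and S100a8 differed by -1.42, with sums of 322 to 391 units in CT26-FL3 and 480 to 537 units in CT26. S100a9 was too dim to be tested, with 0 CT26-FL3 and 3 CT26 arrays above the limit, and was at least 1.24-fold lower in CT26-FL3. Several of these markers were thus lower in the same line as Plau and F3, and their part in those results was not tested. Col1a2, Acta2 and Cd14 averaged 191393, 11173 and 8105 units in CT26, the unselected parent. Such markers therefore cannot tell cells of a liver lesion from what the line itself carries. Of the endothelial markers, 5 of 9 were above the limit on at least 1 array, with sums of 179 to 231 units in CT26-FL3 and 166 to 207 units in CT26. Pecam1, Cdh5, Kdr and Lyve1 stayed below it on every array. So did the hepatocyte markers Alb and Cps1, while the other 6 of 8 on the array did not, with sums of 203 to 212 units in CT26-FL3 and 172 to 233 units in CT26. Of 3 endothelial markers tested, Tie1 was at least 1.64-fold higher in CT26-FL3, through which alone it entered the test, and 2 did not pass. Of 3 hepatocyte markers tested, Apoa1 was higher by 0.24 and 2 did not pass. Of 5 megakaryocyte and platelet markers, only Itga2b was above the limit on any array, and it did not pass. Of 11 colon epithelial markers, 5 were above the limit and all 5 were higher in CT26-FL3 (Krt8, Krt18, Krt20, Cdx2 and Cdh17, median 1.51), with sums of 3138 to 3375 units in CT26-FL3 and 1521 to 1611 units in CT26, while Epcam, Cdh1, Krt19, Cdx1, Vil1 and Lgr5 stayed below it on every array.

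The surroundings of the family were described with 7 lists of other genes, 82 in all, of which 55 were tested on the brightest probe of each. Of these 14 were higher in CT26-FL3, 16 were lower and 25 did not pass. Among the higher, 5 (Lrp2, Serpini1, Hgf, Mmp9 and Serpind1) were below the limit on at least 1 CT26 array, and among the lower, F13a1 was below it on all CT26-FL3 arrays. Over all 15097 genes tested 48.8% passed, with 23.8% higher and 25.0% lower, so that these counts, too, were near the background. The medians of the lists lay between -0.29 and 0.30, against -0.01 over all genes.

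Of the 7 tested genes that hold plasminogen at the cell surface, 2 rose, 4 fell and 1 did not pass (median -0.29), and the rises were larger than the falls. S100a10, which pairs with annexin A2 to bind plasminogen and tissue-type activator, averaged 20661 ± 941 units in CT26-FL3 and 45552 ± 2157 units in CT26 (SD, n = 4 each). It fell by 1.14 (SE 0.05, limma adjusted p = 7.86e-07). Its partner Anxa2 fell by 0.46 (SE 0.05, adjusted p = 0.000126). Plgrkt, a membrane receptor of plasminogen, and Hmgb1 also fell, by 0.29 and 0.30, Hmgb1 with overlapping lines (limma adjusted p = 0.0472). The genes that rose were the integrin subunit gene Itgb2, by 1.48, and the keratin gene Krt8, by 2.23, whose product is known as a plasminogen binding site when it reaches the surface of carcinoma cells. Itgam, another integrin subunit gene of this list, was below the limit on every array, and whether more plasminogen was bound was not tested.

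Of the 9 tested partners of the urokinase receptor, 1 rose, 4 fell and 4 did not pass (median -0.02). Itgb1, the common subunit of many matrix receptors, rose by 0.28 (SE 0.05). Itgb5, a subunit of a vitronectin receptor, fell by 0.87 (SE 0.05), and Cav1, which codes for caveolin, fell by 0.62 (SE 0.05). Itgb3 differed by 0.30 on its brightest probe and did not pass (limma adjusted p = 0.0717). Its other tested probe lay at -2.84, so its probes did not give a common answer. Of the 7 tested genes for receptors that clear complexes of protease and inhibitor, 3 rose, 0 fell and 4 did not pass (median 0.30). Vldlr, an endocytic receptor for such complexes, rose by 1.17 (SE 0.05) with 11394 ± 595 units in CT26-FL3 and 5060 ± 139 units in CT26 (SD, n = 4 each). Lrp2 rose by 1.03 (SE 0.29) but was above the limit on only 2 CT26 arrays. Sort1 rose by 0.37 on its brightest probe, but its 4 tested probes ranged from 0.001 to 0.37. Lrp1, the main clearance receptor, differed by 0.30 and did not pass (limma adjusted p = 0.0505), and its other tested probe differed by 0.05.

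Of 7 other inhibitors of plasmin and its activators, 1 rose, 1 fell and 5 did not pass (median 0.14). Serpini1, known in neurons as an inhibitor of tissue-type activator, rose by 0.71 (SE 0.12), and Serpinb6a fell by 0.15 (SE 0.05, limma adjusted p = 0.046). Serpinb8 was too dim to be tested, with 3 CT26 arrays and 0 CT26-FL3 arrays above the limit, and was at least 1.12-fold lower in CT26-FL3 (3.31 units in CT26-FL3 and 20.7 units in CT26).

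Among proteases and proforms on which urokinase or plasmin is known to act, 3 of 11 rose, 5 fell and 3 did not pass (median -0.12). The stromelysin genes Mmp3 and Mmp10, whose proforms plasmin can activate, fell by 1.48 (SE 0.08) and 1.14 (SE 0.06). Mmp3 averaged 13278 ± 1453 units in CT26-FL3 and 36875 ± 1181 units in CT26 (SD, n = 4 each). The gelatinase gene Mmp9 rose by 0.86 (SE 0.08), with 1 CT26 array below the limit. Hgf, a growth factor whose proform urokinase can cut, rose by 2.75 (SE 0.25, limma adjusted p = 3.86e-05) and was above the limit on 2 of the 4 CT26 arrays.

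Of 9 tested thrombin receptors and natural anticoagulants, 4 rose, 1 fell and 4 did not pass (median 0.01). Pros1, which codes for the anticoagulant protein S, rose by 0.98 (SE 0.06), and its other tested probe differed by 0.61. Serpind1, a thrombin inhibitor, averaged 32.4 ± 12.2 units in CT26-FL3 and 9.63 ± 6.69 units in CT26 (SD, n = 4 each), but only 1 CT26 array was above the limit, so the size of its rise is not well known. Procr, the receptor of protein C, fell by 0.25 (SE 0.06). In the list of coagulation factors and fibrin, 11 of 17 genes could not be tested. Of the 6 that could, 0 rose, 1 fell and 5 did not pass (median 0.04). F13a1, the fibrin cross-linking enzyme, was not well above background in CT26-FL3 and was at least 1.89-fold lower there (4.86 units in CT26-FL3 and 33.3 units in CT26, limma adjusted p = 1.83e-05). It is the gene behind the fall counted in this list, and it entered the test only through CT26. F7, the partner of tissue factor, differed by -0.01 with 3 arrays of each line above the limit (adjusted p = 0.966).

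**Figure D4:**
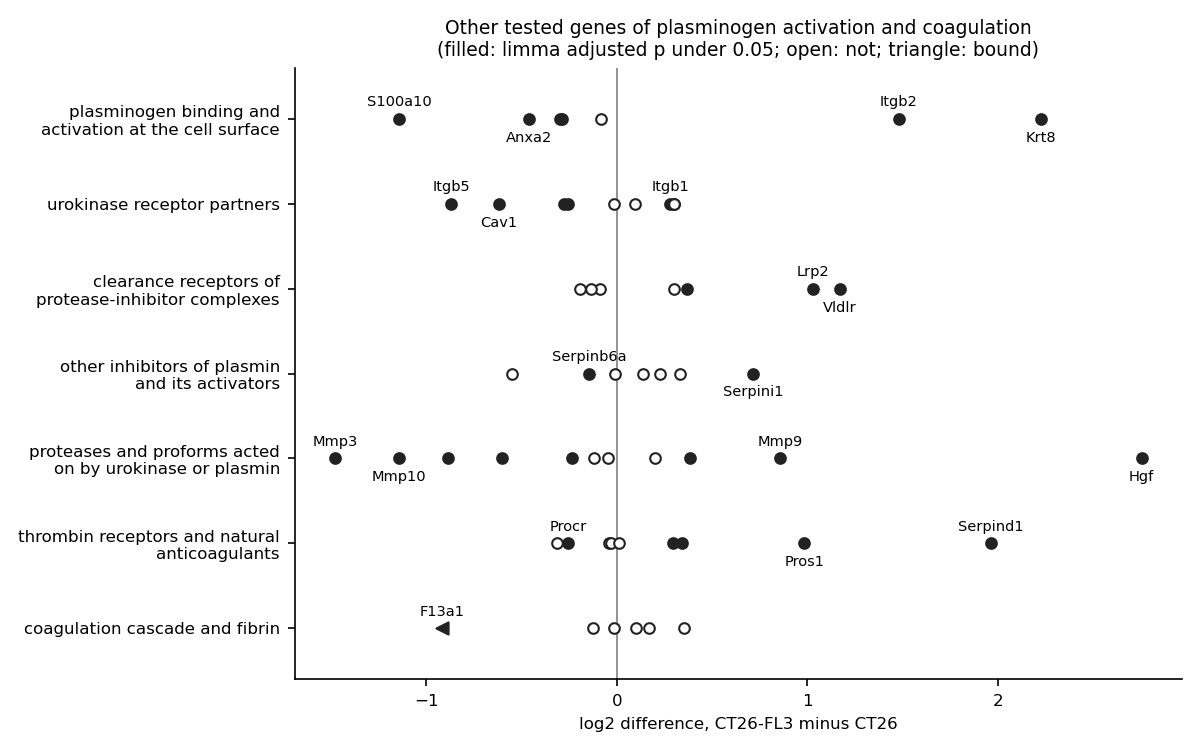
Log2 difference of CT26-FL3 minus CT26 for the tested genes of 7 lists of plasminogen activation and coagulation. Filled points passed an adjusted p of 0.05, open points did not, and the triangle is the bound of F13a1. S100a10, Mmp3 and Mmp10 lie beyond -1, and Hgf, Krt8, Serpind1, Itgb2, Vldlr and Lrp2 beyond 1, of which Hgf, Serpind1 and Lrp2 were below the limit on at least 2 CT26 arrays.

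The genes whose pattern over the 8 arrays lay nearest to that of Plau, by root mean square difference of log2 values after centring each gene, were sought among 12647 genes. They were Ccdc92 (0.05), Dipk2a (0.06) and Timp3 (0.07). Timp3, an inhibitor of metalloproteinases that is stored in matrix, differed by -1.05 (SE 0.07), and Ccdc92 and Dipk2a by -1.01 and -1.05. Differences close to that of Plau follow from the way these genes were chosen and are no separate result. Nearest to the brightest Tfpi probe were Bid (0.03), Ttc39c (0.04) and Gga3 (0.04).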

How the data were processed

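Spot intensity, background and standard deviation come from array tables that the authors deposited. The submitters' processing notes name Agilent Feature Extraction, without a version. This intensity was already background-subtracted, as negative controls had medians of 2.23 to 7.43 where the background column had 21.1 to 24.4. A log2 table was deposited too, with each probe centred on its median over the arrays. Over the 20853 probes above the limit on all 8 arrays it correlated with the array values at r from 0.985 to 0.997 with slopes of 0.952 to 1.004, so its direction and log2 scale are those of the arrays. Its column medians lay between -0.01 and 0.02, and its normalization stays unknown.

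Control spots and failed spots (3 to 76 per array, no member among them) were left out, log2 values of a probe's spots were averaged, and the 75th percentile of the array (808 to 1151 units) was taken off. Printed intensities were put back on the geometric mean of these percentiles. The limit of detection was set on each array at 2.6 times the median of the standard deviations of its 153 negative controls, above which 52.8 to 58.2% of probes lay. The number of arrays limits the precision. Probes above it on at least 4 of 8 arrays (23068) entered the two-sided test between lines by limma (version 3.58.1, R version 4.3.3), without a block, with Benjamini-Hochberg adjustment over all of them and a threshold of 0.05. A gene with no array of a line above the limit has a bound against the lowest detected signal of each array. The script was tested on simulated data.

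Members are reported with every probe. From each list up to 2 rises and 2 falls past the threshold and any bound are named. Plgrkt, Hmgb1, Itgam, Itgb3, Lrp1, Sort1 and F7 were chosen after their values were seen. The members, lists and tests were chosen with earlier results of these data known. Gene names came from the platform annotation, updated through gene identifiers (32524 probes). Probe sequences and protein sequences were not used here. Samples were grouped and numbered by sample name, since the titles number CT26-FL3 from 2 to 5. The closing section gives the alternatives.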

Additional observations from a re-analysis of the deposited data

Results flagged for a closer look

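Groups of 4 arrays were checked for an array set apart from the other 3, by Dixon's ratio of gap to range at the 95% level. Chance sets apart about 1 in 20 groups, and 6 of 78 were found. In 4 of them replicate 4 of CT26 was highest on a probe below the detection limit: 7.40 units for Plg (A_51_P267836), 9.01 units for Serpinb2 (A_52_P639522), 7.56 units for Tfpi (A_52_P191353) and 7.88 units for Tfpi2. That array also had the highest negative controls, and the part of this in those values was not tested. Anxa2 was highest in CT26 replicate 4 (73543 units), and Itgb5 was lowest in CT26-FL3 replicate 2 (19863 units).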

How the results depend on the processing

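Both Plau probes and the brighter F3 probe kept their direction and passed in all alternatives in which they were tested, and the brighter Plau probe ranged from -1.06 to -0.88. The brightest Tfpi probe did not pass without a filter on dim probes (adjusted p = 0.0544), with the replicate block by title numbers (0.0775) or within either set of arrays, in a range of 0.00735 to 0.166. The 4 lower member probes were 2 with 1 probe per gene, since only 1 probe of a gene is then tested. The 2 higher ones were 1 without a filter on dim probes, with all 8 arrays above the limit, with the block by title numbers, within replicates 1 and 2 and with 1 probe per gene. Within replicates 3 and 4 they were 0 in limma (1 at an unadjusted p under 0.05). Leaving out each array in turn left 4 lower and 2 higher. Of the other pathway genes 10 were lower within replicates 1 and 2 and 9 within replicates 3 and 4, where all probes called numbered 5756 and 5728, against 11131 over all 8 arrays. Differences near 0 changed sign: the dimmer tested Plat probe was -0.016 with the block by title numbers, -0.0080 within replicates 1 and 2 and -0.023 to 0.061 with an array left out, Tfpi probe A_52_P592007 was -0.086 to 0.026 with an array left out, and A_52_P631889 was 0.082 within replicates 1 and 2. The cause was not tested. Same-numbered samples of the lines correlated in their deviations at -0.03 to 0.17 by sample names, so the numbers are not taken as pairs. With the replicate block by sample names the member counts were 2 and 4, and all probes called numbered 10305. In the gene pairs this block, as sign flips, left -1.01, -0.90 and -0.70 at adjusted p = 0.125, the smallest that 4 numbers allow. The gap of F3 and Tfpi was -0.62 with the mean of all tested probes of each gene and -0.39 with the reference-transcript probes of Tfpi, an alternative chosen after seeing the data.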
